A study of Arabidopsis thaliana with 6 samples.

Results

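Protein phosphatases of type 2C (PP2C) were followed in whole Arabidopsis thaliana seedlings exposed to a chitin fragment. The 60 genes followed here were given by locus code and are not the whole family, with 17 other PP2C genes listed apart. A gene was measured where the platform annotation ties a probe set to that gene and to no other. This held for 41 of the 60 genes, out of 13355 genes with such a probe set in all. Each transcript is read on the array by a set of short oligonucleotides, the probe set, and where a gene had several the one with the highest mean over the 6 arrays was used.

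Seedlings of the Col 0 ecotype, with no transgene or mutation named in the labels, were grown for 14 days in shaken liquid medium under constant light. They then received chitooctaose at a final concentration of 1 µM or an equal volume (20 µl into 10 ml) of water, and were collected after 30 min. There were 3 arrays per treatment, which the series text calls biological replicates. Titles and protocols were followed for treatment and time, although the series text gives 3 min and the treated arrays carry a description field that mentions water. Each array is a mixture of all organs, so a change in the share of a cell type and a change in transcript per cell cannot be told apart.

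Chitooctaose is a fragment of chitin, the polymer of fungal cell walls, which plants sense through receptor kinases with LysM domains. Sensing it starts phosphorylation by receptor kinases, cytoplasmic kinases and MAP kinase cascades. PP2C enzymes are metal-dependent phosphatases that remove phosphate from serine and threonine. Clades of the plant family differ in their known targets. Clade A acts on the SnRK2 kinases of abscisic acid signalling, the AP2C enzymes on MAP kinases, and some clade D members on the plasma membrane proton pump.

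The arrays were alike in overall level, with median intensities between 156 and 170. Log2 intensities correlated with Pearson's r from 0.977 to 0.984 within a treatment and from 0.954 to 0.962 across treatments, taken across probe sets, whose values are not independent of each other. Of the listed markers of shoots 3 of 6 were measured and of those of roots 2 of 7. All 5 were above an intensity of 16 on every array, and none was called as changed. LHCB4.1, a light-harvesting gene, gave intensities of 9325 ± 132 (water) and 9000 ± 591 (chitooctaose), and PYK10, a glucosidase gene of roots, of 9440 ± 75.4 and 9644 ± 406 (SD, n = 3). The log2 changes were -0.05 for LHCB4.1, -0.08 for LHCB4.2 and 0.20 for LHCB4.3 among shoot markers, and 0.03 for PYK10 and -0.38 for EXPA7, an expansin gene of root hairs, among root markers.

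Of the 41 measured PP2C genes, 5 rose after chitooctaose and none fell, while 2 were lower at an unadjusted p under 0.05. After quantile normalization 5 rose and 2 fell, and without water replicate 2 the split was 5 and 1. The genes that rose were AT1G07160, AT4G28400, AT3G62260, AT3G55050 and AT1G68410. A call means an adjusted p under 0.05 in limma, a linear model fitted to each of 22746 probe sets, with Benjamini-Hochberg adjustment over all of them. The share of PP2C genes that rose was 12.2%, where 4.24% of all tested probe sets and 3.76% of all measured genes rose, and falls made up 0.805% of all tested probe sets and 0.562% of measured genes. The median log2 change was -0.05 over the 41 genes and -0.04 over all tested probe sets. The members were chosen with earlier results of these data known, so these shares are a description. The median SE of the log2 change was 0.110 over the members and 0.139 over all tested probe sets, and a smaller SE makes a call easier. The family was not tested as a set.

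The rises were of unequal size. One gene went from background to a strong signal, a pair rose about equally at 2.62-fold and 2.50-fold, and another pair rose 1.53-fold and 1.50-fold. By log2 change the 5 genes held ranks 1, 468, 493, 831 and 841 among the 964 probe sets that rose. The 5 genes lie in different branches of the family, 1 each in the AP2C group and in clades D, F and G, and 1 outside the clades listed here. The groups of arrays did not overlap for 8 members that were higher and 6 that were lower in chitooctaose, 14 of 41 in all. Over all tested probe sets such a separation was seen for 19.5% (9.10% higher and 10.4% lower).

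**Figure D1:**
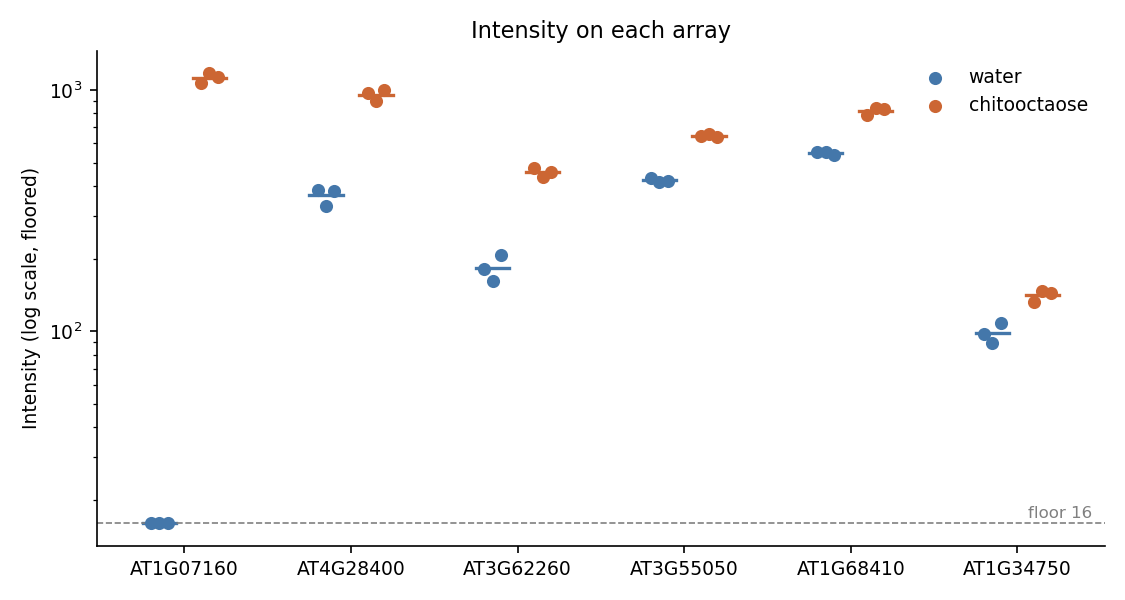
Intensity on each of the 6 arrays (log axis, values below 16 drawn at 16) for the 5 PP2C genes that rose and for AT1G34750, which was not called. Points are arrays and short lines are means of the log2 values; for every gene drawn, the 3 chitooctaose arrays lie above the 3 water arrays, and AT1G07160 lies at the floor in water.

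AT1G07160 encodes AP2C2, of the AP2C group whose members dephosphorylate MAP kinases. Its probe set gave intensities of -0.110, -4.54 and -6.19 on the water arrays and of 1071, 1172 and 1131 on the chitooctaose arrays. Water values thus lay at or under the background on all 3 arrays, and the treated arrays lay close together, at 1125 ± 50.7 (SD, n = 3). Values under a floor of 16 were set to 16 before log2, so the rise is a lower bound of at least 70.2-fold (adjusted p = 9.05e-06). It had the largest fitted log2 change of all 22746 probe sets. With a floor of 64 the bound was at least 17.6-fold and its rank was 21, so its place at the top depends on the floor. It was called at every floor run, but each floor sets the 3 water values to the same number. Its own spread thus enters the p-value only through the treated arrays, and the floors cannot show whether the call depends on the water values.

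The other measured AP2C gene is AT1G67820, which encodes AP2C4. It gave 82.3, 92.3 and 99.1 in water and 97.7, 103 and 83.4 in chitooctaose. The groups overlapped, and the log2 change was 0.05 with a 95% interval from -0.29 to 0.39 (adjusted p = 0.931). The interval lies below the change of AT1G07160 at each floor run. How far the change of AT1G07160 exceeds that of AT1G67820 has, like that change itself, only a lower bound, since the former was under the floor on all water arrays. AT2G40180, listed as PP2C5 and known also as AP2C3, was not analysed here, nor was AT4G08260.

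Clade D had 4 measured members of 9. Some enzymes of this clade are known to dephosphorylate the plasma membrane proton pump and to be held in check by SAUR proteins, the products of early auxin genes. AT3G55050 gave 431, 413 and 419 in water and 642, 654 and 637 in chitooctaose. The groups were far apart for so modest a rise, since both were tight, at 421 ± 9.16 and 644 ± 8.72 (SD, n = 3). The log2 change was 0.61 (SE 0.04, adjusted p = 0.000660), with a 95% interval from 0.50 to 0.72.

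The 3 other measured members of clade D did not pass, and all were slightly lower in chitooctaose, with log2 changes from -0.14 to -0.10. A lower mean in chitooctaose was also found for 61.6% of all tested probe sets. AT3G12620 encodes PP2C38, a phosphatase known to act on the immune kinase BIK1. It gave 528, 497 and 510 in water and 481, 408 and 507 in chitooctaose. Its groups overlapped, and its 95% interval, from -0.37 to 0.08, lies below that of AT3G55050. AT3G17090 stood at 971 ± 65.3 and 905 ± 62.3 (SD, n = 3, limma adjusted p = 0.662). AT3G51370 had a log2 change of -0.13. The log2 change of AT3G55050 exceeded those of its 3 clade mates by 0.71 to 0.75, and within arrays its ratio to each of them was higher on every chitooctaose array than on any water array. As AT3G55050 was picked for its rise, this separation is a description and no test. It was seen for all 16 pairs of a risen gene and another measured member of its group.

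**Figure D2:**
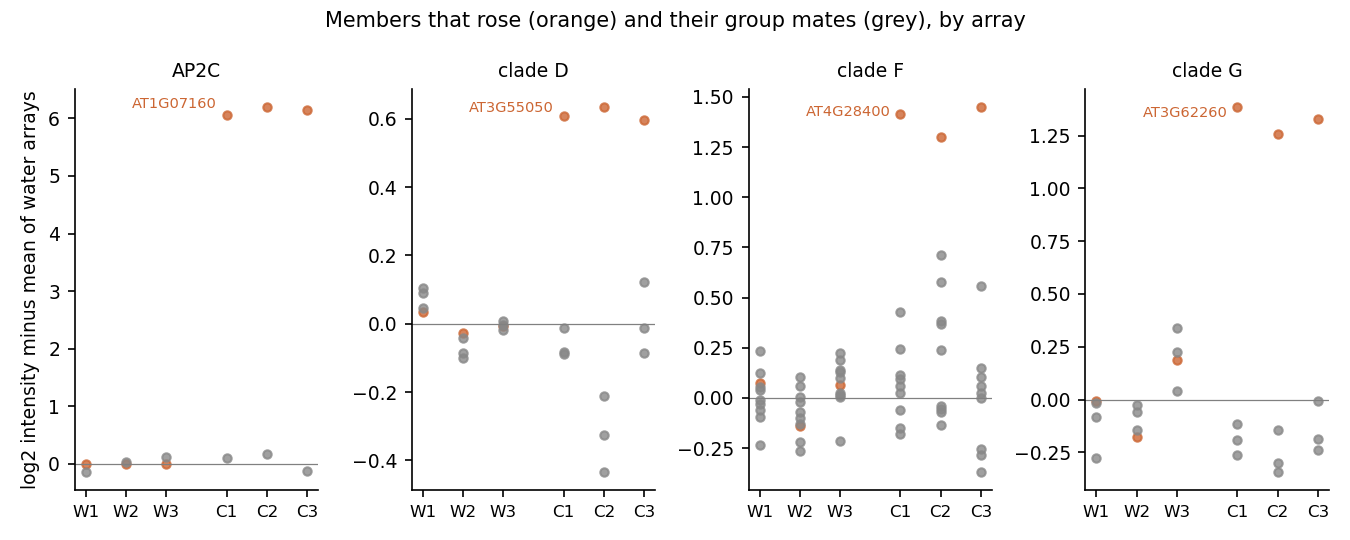
Log2 intensity (floor 16) minus the gene's mean over the water arrays, for the measured members of the AP2C group and of clades D, F and G; W1 to W3 are water arrays and C1 to C3 chitooctaose arrays. Orange points are the member that rose and grey points the others, and each panel has its own vertical axis: in every panel the orange points of the chitooctaose arrays lie above all grey points. The orange members were picked because they rose, so this separation is no test.

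Clade F had 10 measured members of 12, and it holds phosphatases known from pathogen responses, among them PIA1. AT4G28400 was the clade's called gene, with 385, 331 and 381 in water and 974, 899 and 996 in chitooctaose. Every chitooctaose value was more than 2 times any water value. The rise was 2.62-fold, from 366 ± 30.0 to 956 ± 50.7 (SD, n = 3). In log2 terms it was 1.39, with a 95% interval from 1.19 to 1.58 (limma adjusted p = 0.000258).

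AT1G34750 of the same clade came next but did not pass. It gave 97.3, 89.5 and 108 in water and 132, 146 and 144 in chitooctaose. The groups did not overlap, and the log2 change was 0.52 with an adjusted p of 0.0780. Without the mean-variance trend in the model the adjusted p was 0.0436, past the threshold. Under the 17 other alternatives it did not pass, with a limma adjusted p of up to 0.243.

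PIA1 (AT2G20630) is named for its induction by a bacterial effector, AvrRpm1, and is known to affect defence. It gave 879, 711 and 999 in water and 868, 1104 and 948 in chitooctaose. The groups overlapped, the log2 change was 0.18, and its 95% interval from -0.19 to 0.55 (adjusted p = 0.711) does not reach a doubling. AT5G53140 averaged 1115 ± 45.4 in water and 995 ± 86.1 after chitooctaose (SD, n = 3, limma adjusted p = 0.408). The 6 remaining members had log2 changes between -0.05 for AT5G24940 and 0.23 for AT2G34740. WIN2 and PAPP2C, phosphatases that bind a bacterial effector and phytochromes respectively, were not analysed here.

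Clade G had 4 measured members of 6. AT3G62260 is known for its part in salt responses, where it acts on the sodium transporter HKT1. It gave 181, 161 and 207 in water and 475, 435 and 457 in chitooctaose. The lowest chitooctaose array stood well clear of the highest water array, and the rise was 2.50-fold, a log2 change of 1.32 with a 95% interval from 1.06 to 1.59 (adjusted p = 0.00114).

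The 3 other measured genes of clade G had lower means in chitooctaose, as did 61.6% of all tested probe sets, and did not pass. Their log2 changes were -0.17 for AT3G17250, -0.17 for AT3G51470 and -0.27 for AT1G48040. AT1G48040 gave 110, 106 and 137 in water and 97.4, 92.2 and 103 in chitooctaose, without overlap between the groups (adjusted p = 0.498). The log2 change of AT3G62260 exceeded those of its clade mates by 1.49 to 1.59. DBP1 and PP2CG1 of this clade were not analysed here. These pairs of a risen gene and its clade mates were formed once the rises were known, so they are given as descriptions with no test.

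None of the 10 measured members of clade E passed, of 12 listed. Their log2 changes ran from -0.44 to 0.17 with a median of -0.15, and 8 of 10 had a lower mean in chitooctaose. Over all tested probe sets 61.6% had a lower mean. The clade holds the EGR genes, whose products restrain growth under low water supply. EGR1 (AT3G05640) had a log2 change of -0.36, EGR2 (AT5G27930) one of -0.04 and EGR3 (AT3G16800) one of -0.19.

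EGR2 gave 264, 237 and 242 in water and 274, 223 and 230 in chitooctaose, with overlapping groups (adjusted p = 0.928). EGR3 was lower on every chitooctaose array, at 222, 221 and 244 against 249, 259 and 278 in water, and did not pass (adjusted p = 0.365). AT1G03590, whose product PP2C-6-6 acts on the histone acetyltransferase GCN5, was higher on every chitooctaose array, at 229, 226 and 256 against 213, 208 and 208, and did not pass either (adjusted p = 0.411). AT3G02750 averaged 642 ± 31.6 in water and 636 ± 67.4 after chitooctaose (SD, n = 3).

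**Figure D3:**
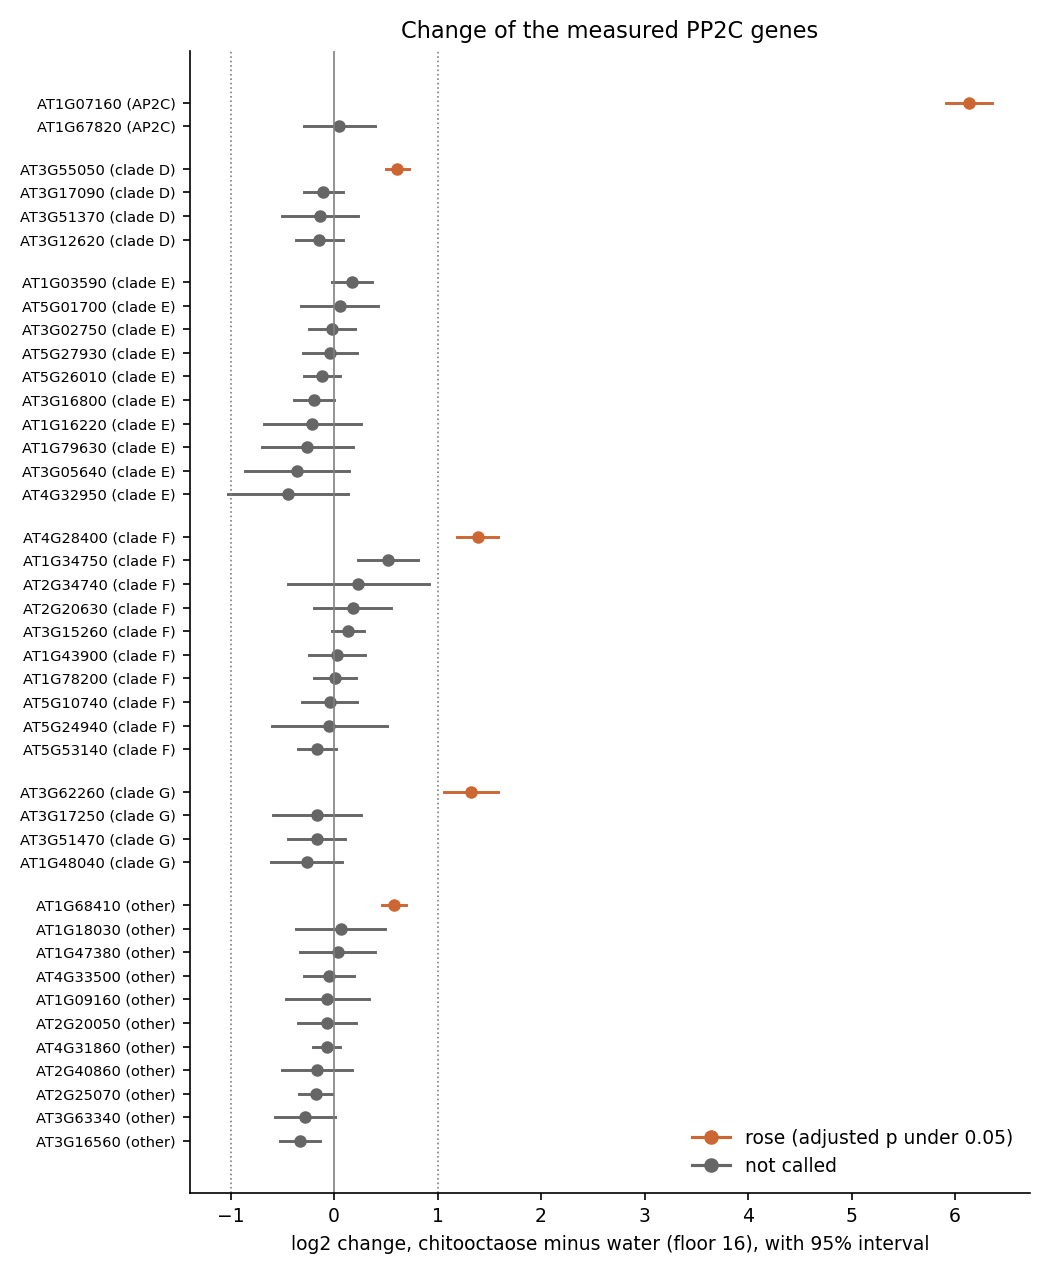
Log2 change (chitooctaose minus water, floor 16) of the 41 measured PP2C genes, grouped by clade, with 95% intervals of the limma model; dotted lines mark a 2-fold change. The 5 genes that rose are orange, and of the other 36 only AT4G32950 has an interval that reaches past a 2-fold change.

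Outside these groups 11 of 17 listed members were measured, and 1 passed. AT1G68410 gave 555, 551 and 539 in water and 785, 843 and 835 in chitooctaose. The water arrays were nearly identical and all treated arrays lay above them, with means of 548 ± 8.15 and 821 ± 31.3 (SD, n = 3). The log2 change was 0.58, with a 95% interval from 0.47 to 0.70 (limma adjusted p = 0.00112).

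AT2G20050 and AT2G40860 encode unusual proteins that join a PP2C domain to a protein kinase domain. AT2G20050 had 2 probe sets, with log2 changes of -0.07 and -0.03, and AT2G40860 one of -0.17. None passed. AT2G25070 gave 817, 731 and 816 in water and 703, 662 and 725 in chitooctaose. It was lower on every chitooctaose array, by a log2 change of -0.18 that did not pass (adjusted p = 0.304). HAI1 of clade A and PBCP, a phosphatase of photosystem II, were not analysed here.

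AT3G16560 came nearest to a fall, and was singled out after its values were seen. It gave 436, 382 and 452 in water and 328, 336 and 345 in chitooctaose. All treated arrays lay below all water arrays, with a log2 change of -0.33 (limma adjusted p = 0.102). It passed without water replicate 2 (adjusted p = 0.0274) and after quantile normalization (0.0349), as AT2G25070 did after quantile normalization (0.0393). Under the other alternatives neither passed, with limma adjusted p of up to 0.316 for AT3G16560 and 0.594 for AT2G25070. AT3G16560, AT2G25070 and, on the higher side, AT1G34750 were the uncalled members with an unadjusted p under 0.05. With the 5 rises that made 8 of 41 members past an unadjusted p of 0.05, where 14.0% of all tested probe sets were.

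The 36 genes that did not pass changed little in their means. Their log2 changes lay between -0.44 and 0.52, and for 29 of them the size was at most 0.25. A 95% interval that stays within a 2-fold change in either direction was found for 35 of the 36, and one that stays within a 1.5-fold change for 27. Among all 21599 uncalled probe sets, 16490 had a size of at most 0.25. Of the same probe sets, 18683 had an interval within a 2-fold change and 12999 one within a 1.5-fold change. The exception was AT4G32950 of clade E, with means of 47.2 ± 11.0 (water) and 34.4 ± 5.97 (chitooctaose; SD, n = 3), whose interval ran from -1.02 to 0.14. AT1G07160 was the only member with an array below the floor.

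**Figure D4:**
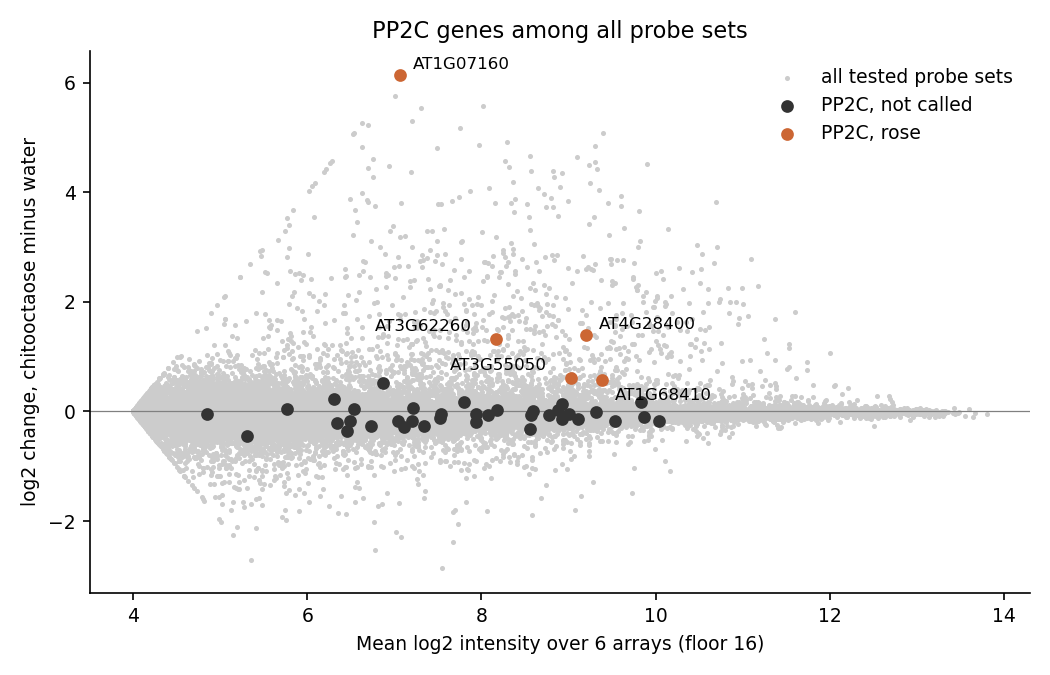
Log2 change (chitooctaose minus water) against mean log2 intensity over 6 arrays, both with a floor of 16, for 22746 tested probe sets (grey), with the 36 uncalled PP2C genes in black and the 5 that rose in orange. AT1G07160 lies at the top of the whole array, and most other members lie near 0.

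All 5 rises held under every alternative run on their probe sets. Their highest adjusted p over these alternatives was 0.00187 for AT1G07160, 0.00510 for AT4G28400, 0.0130 for AT3G62260, 0.0140 for AT3G55050 and 0.0177 for AT1G68410. Without any single array the count of rises remained 5. For AT1G07160 the water values were equal after flooring, so leaving out a water array left its log2 change at 6.13. The log2 changes of AT4G28400 ranged from 1.32 to 1.43 and those of AT3G55050 from 0.57 to 0.63 over the alternatives.

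Other listed phosphatases, kinases, abscisic acid receptors and proton pumps were scarcely on named probe sets. Whether they act with the PP2C members was not tested. POL, a PP2C of stem cell maintenance, was the 1 measured gene of 17 other PP2C genes and had a log2 change of -0.13 (adjusted p = 0.748). ATMPK13 was the 1 measured gene of 35 MAP kinase cascade genes, with 68.2 ± 4.79 in water and 45.7 ± 24.3 in chitooctaose (SD, n = 3, limma adjusted p = 0.542). Of 16 tyrosine and dual specificity phosphatase genes, AT5G56610 and AT3G09100 were measured, with log2 changes of 0.19 and 0.03, and neither passed. No gene of 24 abscisic acid receptor and SnRK2 genes, nor of 11 plasma membrane proton pump genes, was analysed here.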

How the data were processed

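Whole seedlings were measured on 6 Affymetrix arrays, 3 per treatment, with cRNA made from 7 µg of total RNA, according to the protocols in the labels. What the authors deposited is a linear intensity for every probe set on every array. How the authors summarised, background-corrected and scaled these intensities is not given in the sources used here. Each array had 163 to 213 negative values. As the scaling is unknown, a difference in level between probe sets was not read as one in transcript amount.

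Genes were named through the platform annotation and a RefSeq gene table (TAIR10.1). Coordinates in the gene table served only to find neighbouring genes. Of 22810 probe sets, 64 Affymetrix controls were left out. Of the 22746 tested, 13513 had 1 gene, 503 several and 8730 none in this annotation. Intensities below a floor of 16 (3.81 to 4.91% of an array's values) were set to 16, and log2 of the deposited intensities was taken. The test was limma 3.58.1 in R 4.3.3 (lmFit, eBayes with a mean-variance trend, 2-sided, no covariate), and the script was tested on simulated data. There 69% of 100 simulated 2-fold changes and 97% of 100 4-fold changes were called in the right direction. The dimmest probe sets were given no change, and 11 of all 177 calls were false. A gene that did not pass may thus still have changed. Fold changes are 2 to the power of the difference of mean log2 values. Means ± SD are of deposited intensities, and the number of arrays limits precision.

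Members, clade lists and pathway lists were chosen with earlier results of these data known. Named genes were every called member, uncalled members without overlap and with a log2 change of 0.5 or more in size, members with known roles, and the member whose probe set had the highest mean in each group, a choice that says nothing of transcript amounts; further genes were named after their values were seen. Same-numbered arrays had deviations from their group means that correlated at 0.05, 0.03 and -0.10, so the numbers were not taken to pair the arrays. Protein and promoter sequences were not used here.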

Additional observations from a re-analysis of the deposited data

How the results depend on the processing

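The alternatives without probe sets of shared sequence, without probe sets at the floor, and at an adjusted p under 0.01 were chosen after seeing the data. The count of PP2C rises was 5 under most settings, 6 without the mean-variance trend and 4 without probe sets at the floor, where AT1G07160 is left out by construction. Falls numbered 2 after quantile normalization and 0 to 1 with single arrays left out (1 without water replicate 2). What causes these differences was not tested. With the replicate number as a block, 5 members rose and none fell, and 754 probe sets rose and 93 fell. Over all probe sets the 183 falls became 113 without variance shrinkage, 62 at an adjusted p under 0.01, and 86 to 176 with single arrays left out, when fewer arrays enter the model. Other settings gave more falls, with 265 after quantile normalization, 260 after median centring and 241 without probe sets at the floor. There were 225 with robust variances and 212 without the dimmest 40% of probe sets. Uncalled log2 changes near 0 changed sign with single arrays left out. AT5G27930 ranged from -0.13 to 0.017, being 0.0073 without water replicate 1 and 0.017 without chitooctaose replicate 2. AT1G67820 ranged from -0.022 to 0.14, the negative values being -0.022 and -0.012 without these same arrays. AT3G02750 ranged from -0.10 to 0.051, being 0.0054 without water replicate 2 and 0.051 without chitooctaose replicate 2. The size of the rise of AT1G07160 is set by the floor, with fitted log2 changes of 10.13 at a floor of 1 and 4.13 at 64. Near the floor, signal limits what a fold change can show.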

Other observations

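Of the 10 protein-coding genes next to the 5 risen PP2C genes in the gene table, 3 were measured and none was called. AT3G55060, beside AT3G55050, had a log2 change of -0.05. AT1G68400 and AT1G68420, on either side of AT1G68410, had log2 changes of -0.10 and -0.45 (limma adjusted p = 0.795 and 0.762). MAPKKK13, a MAP kinase kinase kinase gene, stands next to AT1G07160 and was not analysed here.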
